A study of Homo sapiens with 2 samples.

Results

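The 9 genes described here belong to the p53 pathway: the p53 regulators MDM2, MDM4 and PPM1D, and the direct targets CDKN1A, GADD45A, ZMAT3, RPS27L, TIGAR and SESN1. They were taken by symbol from the deposited table of reads per gene, and each was found once among its 46425 symbols on 46427 lines. NK92 is an established human natural killer (NK) cell line, and PPMX-T003 is an antibody against transferrin receptor 1 (TfR1), which imports the iron carried by transferrin. The study asked how the RNA of NK92 cells differs after exposure to this antibody. The cells were cultured in a medium with 2% human serum, pre-incubated for 18 h and then divided equally between an unexposed and a PPMX-T003 dish. The unexposed dish then received no antibody, and the PPMX-T003 dish received 10 µg/mL for 6 h. The deposited columns carry the names 0 h and 6 h, whereas the methods give both dishes the same culture time. The column named 0 h was taken for the unexposed cells, and the time of harvest, if it differed, cannot be told apart from the exposure. Poly(A) RNA was sequenced as stranded libraries, 1 per dish, with 46766416 counts for the unexposed and 43178462 for the PPMX-T003 library. There was no replicate, so no p-value is given.

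In cells under stress, p53 is released from its inhibitors MDM2 and MDM4 and binds DNA as a tetramer, switching on genes that halt the cell cycle, repair DNA, retune metabolism or start apoptosis. Several of the genes it switches on, MDM2 and PPM1D among them, act back on p53, so that the pathway limits itself. Much of the control of p53 is exerted on the protein, which RNA libraries do not measure.

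NK92 identity was read from marker genes. All 9 NK cell markers lay above 3 counts, with a summed level of 6538 TPM (a level scaled for transcript length and library size) in the unexposed and 7137 TPM in the PPMX-T003 library. The most abundant was NKG7, a granule membrane protein of cytotoxic lymphocytes, at 3215 and 3445 TPM. The sum joins markers that lay on opposite sides of 0: NCAM1, which encodes CD56, had 10820 and 9420 counts, and CD2 had 1838 and 1541. Of 5 T cell markers, CD3D and CD3G were at 0 in both libraries, whereas CD3E had 19080 and 18942 counts, TRBC1 3664 and 4100, and TRAC 1501 and 1312. The summed T cell marker level was 1078 TPM unexposed and 1152 TPM with PPMX-T003. The B cell marker MS4A1 was at 0 in both libraries, and CD79A had 14 and 12 counts. Of the myeloid markers, CD14 had 0 and 7 counts, LYZ 2 and 0, and CSF1R 22 and 9. The part of these markers in the differences given here was not tested.

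At this depth the pathway genes differed little between the dishes. Of the 9 genes, 8 had at least 20 counts over both libraries and were compared, and CDKN1A, with 0 and 2 counts, was not. None of the 8 differed by 2-fold, in a table where, of the 13665 genes with at least 20 counts, 1.27% were 2-fold or more higher and 1.38% 2-fold or more lower. All 8 had at least 200 counts, and of the 10419 genes that did so, 13 were 2-fold or more higher and 8 lower. MDM2, MDM4, TIGAR, SESN1 and ZMAT3 were lower in the PPMX-T003 library by more than counting error, and none was higher by more than counting error. Of the genes with at least 200 counts, 28.6% were lower and 25.7% higher in the same sense. The reductions ran from 9.77% for MDM4 to 18.6% for ZMAT3. How many of these calls were kept depended on a joint correction for the base composition and length of the transcripts, described after the genes.

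Levels are given as CPM, counts scaled to library size, with the libraries put on a common scale by TMM, a trimmed mean of their log ratios, whose factor was 1.00 for both. Differences are log2 CPM in the PPMX-T003 library minus log2 CPM in the unexposed library, with a prior count of 2 added. Each carries a 95% interval, obtained by the exact Clopper-Pearson method from how the reads of the gene split between the libraries. Such an interval covers counting error only and compares the libraries, not the conditions. In a bulk library, fewer cells that express a gene and less of its RNA per cell cannot be told apart. Positions are those of the RefSeq annotation of GRCh38.p14.

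MDM2 (NCBI Gene 4193, chr12:68808172-68850686) encodes the ubiquitin ligase that marks p53 for degradation, and p53 in turn activates its internal promoter. It had 5996 counts in the unexposed and 4861 in the PPMX-T003 library, or 128 and 113 CPM. The difference was -0.19 (interval -0.24 to -0.13), a level lower by 12.1% with PPMX-T003. Per transcript length, MDM2 was the most abundant of the 9 genes in both libraries. Its exons share bases on the same strand with another gene of the GENCODE 29 annotation, and reads in such exons can be divided between genes by an estimate. Whether this happened in the deposited counts was not tested.

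The promoter windows of the genes were read from RefSeq (GRCh38.p14), which gave 14 windows, each from 250 bases before to 50 bases after a transcript start, for 8 of the 9 genes. They were searched on both strands for the p53 response element, a 20-base element made of a pair of adjoining decamers, each its own reverse complement in consensus form. With at most 3 mismatches, 4 windows of 3 genes held it, against 5.20% of all 35116 promoter windows. MDM2, SESN1 and RPS27L are the genes concerned. The MDM2 stretch is shown because it holds 2 such elements, in capitals, with 2 mismatches in the first and 3 in the second. It lies at chr12:68808898-68809000 on the plus strand, inside the gene and outside every GENCODE 29 exon. The windows of MDM2 in which it lies overlap, so that these are the same elements. At most 2 mismatches were found in 0.649% of all windows.
MDM2: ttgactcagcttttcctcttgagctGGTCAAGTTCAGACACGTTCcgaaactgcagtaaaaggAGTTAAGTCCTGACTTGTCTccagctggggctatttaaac

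MDM4 (Gene 4194, chr1:204516406-204558120) encodes a relative of MDM2 that binds p53 and covers its activation domain. Its 1166 and 970 counts corresponded to 24.9 CPM unexposed and 22.5 CPM with PPMX-T003. The difference of -0.15 (interval -0.27 to -0.02) was the smallest of those whose interval lay below 0. Its best promoter match had 5 mismatches.

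PPM1D (Gene 8493, chr17:60600193-60666280) encodes the WIP1 phosphatase, which removes activating phosphates from p53 and from kinases of the DNA damage response. The gene had 1416 counts unexposed and 1213 with PPMX-T003, or 30.3 and 28.1 CPM. At -0.11 (interval -0.22 to 0.01), its difference was not distinguishable from 0 at this depth. Under median-of-ratios scaling the value was -0.12 and the interval lay below 0, which made 6 genes of 8, beside 31.1% of the genes with at least 200 counts under that scaling. All 3 regulators thus had a lower value in the PPMX-T003 library. Those of MDM2 and MDM4 differed beyond counting error, as 28.6% of genes with at least 200 counts did in this direction. In the fits on GC content and length described below, the interval of MDM4 held 0. That of MDM2 held 0 in the fit that used the longest transcript.

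CDKN1A (Gene 1026, chr6:36676463-36687332) encodes p21, the inhibitor of cyclin-dependent kinases through which p53 halts the cell cycle. It had 0 counts in the unexposed library and 2 in the PPMX-T003 library. Both are at or under 3 counts, which correspond to 0.0641 CPM unexposed and 0.0695 CPM with PPMX-T003, so no fold is given. CDKN1A RNA was thus at the limit of detection in both dishes. Of 19672 protein-coding genes in the table, 39.4% had no more than 3 counts in either library.

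GADD45A (Gene 1647, chr1:67685201-67688334) encodes a small stress protein that binds PCNA and the mitotic kinase CDK1. The counts were 109 unexposed and 103 with PPMX-T003, or 2.33 and 2.39 CPM. With so few reads, the interval around its difference of 0.03 ran from -0.37 to 0.44. Both cell cycle targets were therefore low in these cells with and without the antibody.

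TIGAR (Gene 57103, chr12:4321213-4360028) encodes a fructose-2,6-bisphosphatase that slows glycolysis and favours the pentose phosphate pathway. It was measured by 1092 counts unexposed and 884 with PPMX-T003, or 23.3 and 20.5 CPM. The difference was -0.19 (interval -0.32 to -0.06), or 12.2% lower. TIGAR also shares exonic bases on its strand with another GENCODE 29 gene.

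SESN1 (Gene 27244, chr6:108984309-109094846) encodes sestrin 1, a stress protein that restrains the growth kinase complex mTORC1. Its counts were 667 unexposed and 507 with PPMX-T003, or 14.3 and 11.8 CPM. At -0.28 (interval -0.45 to -0.11), it was lower by 17.6%. Both metabolic targets were thus lower in the PPMX-T003 library by more than counting error, as were 28.6% of genes with at least 200 counts. The interval of TIGAR held 0 after the fit on GC content and length described below. A window of SESN1 held an element with 3 mismatches, in capitals in the stretch shown, of which 1 decamer matched the consensus exactly. An exact decamer occurred in 6.63% of all windows. The stretch lies on the minus strand at chr6:109008998-109009062, inside the gene and outside its listed exons.
SESN1: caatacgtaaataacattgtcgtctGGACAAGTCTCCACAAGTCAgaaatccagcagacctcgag

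ZMAT3 (Gene 64393, chr3:179017223-179072513) encodes a zinc finger protein that binds RNA and acts on splicing and on the stability of messages. It had 630 counts in the unexposed and 473 in the PPMX-T003 library, or 13.5 and 11.0 CPM. Among the 8 genes compared, its difference of -0.30 (interval -0.47 to -0.12) was the farthest from 0. The deposited TPM, rounded to whole numbers, was 3 in both libraries and did not resolve it.

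RPS27L (Gene 51065, chr15:63148249-63157477) encodes a ribosomal protein closely related to RPS27 that also binds MDM2. With 2137 counts unexposed and 2061 with PPMX-T003, it stood at 45.7 and 47.8 CPM. Its difference was 0.06 (interval -0.02 to 0.15). RPS27L and ZMAT3, the targets that act on RNA or the ribosome, therefore had values on opposite sides of 0. The RPS27L element had 3 mismatches and 1 exact decamer, and it is shown alone, on the minus strand at chr15:63157527-63157546, since it overlaps a GENCODE 29 exon.
RPS27L: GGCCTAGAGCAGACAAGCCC

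**Figure D1:**
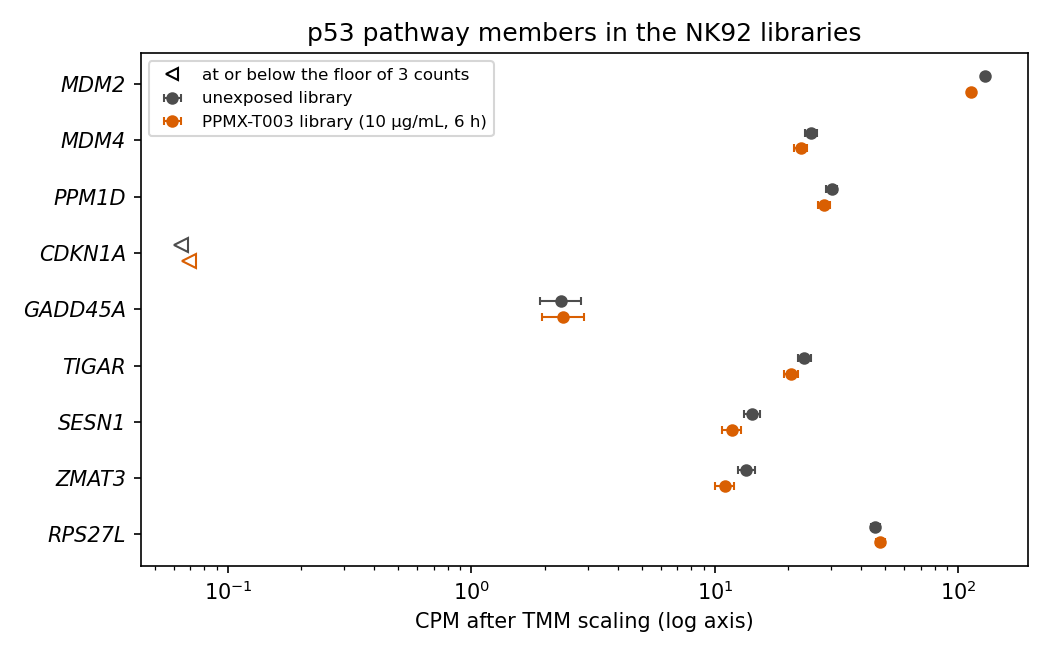
Level of each gene in the unexposed (grey) and PPMX-T003 (orange) library in CPM on a log axis, with 95% Poisson intervals of the counts; open triangles mark 3 counts for a gene at or under that number. MDM2 was measured by the most reads, at 128 and 113 CPM, and CDKN1A is at or under 3 counts in both.

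Of the 8 genes, 5 had an interval below 0 and 0 an interval above 0, while those of PPM1D, GADD45A and RPS27L held 0. Over the 13665 genes with at least 20 counts, 23.9% had an interval below 0 and 21.8% above. All 8 also passed 200 counts, and among the 10419 genes that did so the shares were 28.6% below and 25.7% above. The median difference of the 8 genes was -0.17, beside -0.01 for the genes with at least 200 counts. Of those genes, the central 95% ran from -0.39 to 0.36, and all 8 pathway genes lay inside that range. No test of the list was made, and spread between dishes could not be separated from an effect of the antibody.

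Differences over all genes followed the GC content of their transcripts, taken as the median over the transcripts in GENCODE 29. With the genes of at least 200 counts ranked into 10 deciles by GC content, the bottom decile (31.8% to 39.9%) had a median difference of -0.13 and the top decile (61.5% to 74.1%) of 0.12. Most of the pathway genes have transcripts of low GC content. MDM2, at 41.2%, and SESN1, at 41.9%, fell in a decile whose median was -0.10. MDM4, at 42.4%, TIGAR, at 42.6%, and RPS27L, at 42.3%, fell in a decile with a median of -0.07. RPS27L thus had a value of opposite sign to the median of its decile. ZMAT3, at 52.1%, had a value of -0.30 in a decile with a median of 0.04. PPM1D, at 48.9%, belonged to a decile with a median of -0.03. GADD45A, at 56.5%, belonged to a decile with a median of 0.07. Against the middle 50% of their own decile, MDM2, SESN1, TIGAR and ZMAT3 lay below, RPS27L lay above, and MDM4, PPM1D and GADD45A lay inside.

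**Figure D2:**
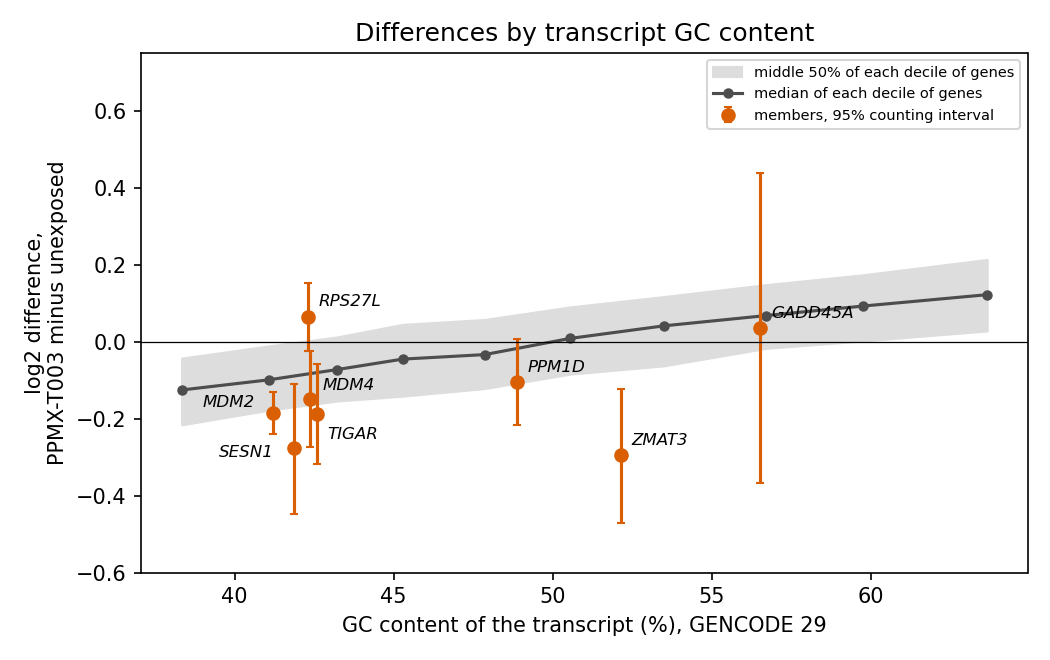
Log2 difference (PPMX-T003 minus unexposed) against transcript GC content in percent; the line gives the median and the band the middle 50% of each decile of genes with at least 200 counts, and points give the pathway genes with 95% counting intervals. The medians run from -0.13 to 0.12, and MDM2, SESN1, TIGAR and ZMAT3 lie below the middle 50% of their decile and RPS27L above it.

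A straight-line fit on GC content and log transcript length over 9949 genes was then removed. The median of the 8 genes became -0.09, with 7 values below 0 and 1 above. MDM2 (-0.13), SESN1 (-0.18) and ZMAT3 (-0.29) still had intervals below 0, beside 22.5% of the 9949 genes. RPS27L (0.11, interval 0.02 to 0.20) now had an interval above 0, beside 22.9% of them. MDM4, at 0.00 after the fit, and TIGAR, at -0.09, had intervals that held 0. The calls also turned on the transcript taken to represent a gene. In a variant chosen after seeing the data, which used the longest transcript, the median of the 8 genes was -0.038. SESN1 (-0.22) and TIGAR (-0.13) had intervals below 0, beside 21.3% of genes, and RPS27L (0.17) had an interval above 0, beside 21.3%. MDM2 then stood at -0.02 (interval -0.08 to 0.03) and ZMAT3 at -0.13 (interval -0.31 to 0.04). Of the 5 genes that were lower without a fit, SESN1 was the gene with an interval below 0 in both fits.

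**Figure D3:**
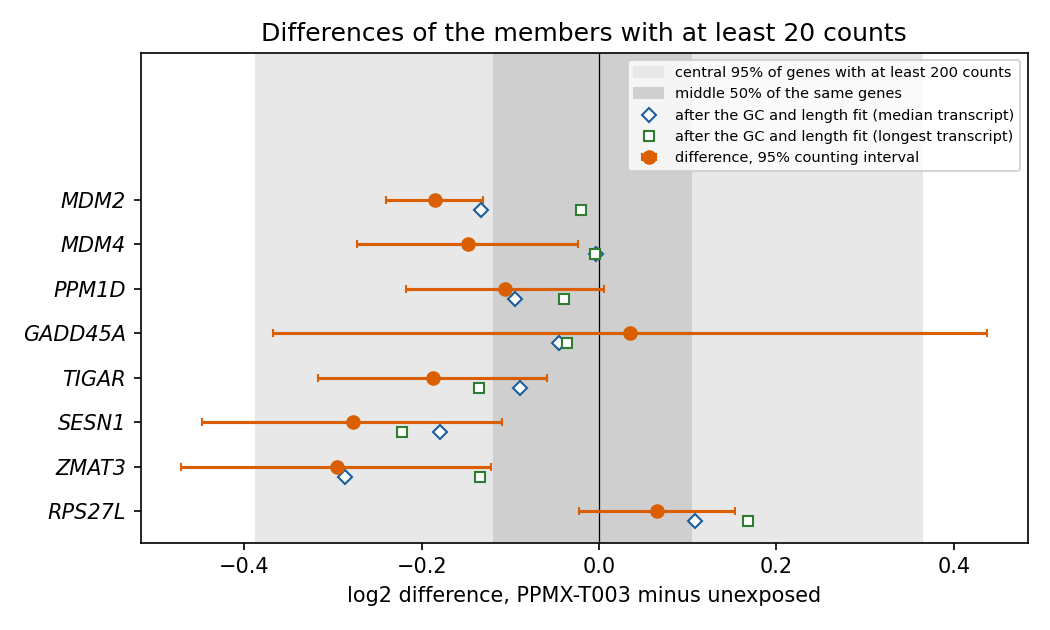
Log2 difference (PPMX-T003 minus unexposed) of the 8 genes with at least 20 counts, with 95% counting intervals, and the values after either fit on GC content and length; bands show the middle 50% and central 95% of genes with at least 200 counts. All 8 differences lie between -0.39 and 0.36, and both fits leave RPS27L above 0 and MDM4 near 0.

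Levels can be compared between genes per transcript length, for which the deposited TPM, rounded to whole numbers, was used. Over 6112 genes with a minimum of 20 TPM, the TPM difference minus the count difference had a median of -0.05. A pair of TPM values can therefore run against the counts. In the unexposed library MDM2 led with 38 TPM, followed by RPS27L with 17 and PPM1D with 14. SESN1 had 7 TPM, MDM4 and TIGAR 6 each, GADD45A 4, ZMAT3 3 and CDKN1A 0. In the PPMX-T003 library the values were 33 for MDM2, 17 for RPS27L, 13 for PPM1D, 5 each for MDM4 and TIGAR, 4 each for SESN1 and GADD45A, 3 for ZMAT3 and 0 for CDKN1A. The order was thus the same apart from SESN1, which was above MDM4 and TIGAR without and below them with PPMX-T003. On the TPM scale with a pseudocount of 1, SESN1 differed by -0.68, beyond the interval of its counts, and the cause was not tested. With 1 library per dish, the spread that would separate neighbours in this order is not known.

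Relatives of the genes differed widely in level. Among the inhibitors of cyclin-dependent kinases, of the CIP/KIP and INK4 families, CDKN2A had the highest level, with 351 TPM unexposed and 403 with PPMX-T003. CDKN2A encodes both p16INK4a and ARF, which its counts do not separate. CDKN2C followed with 69 and 71 TPM, and CDKN1B, which encodes p27, with 34 and 29. CDKN1C and CDKN2B were at 0 in both libraries, beside the 0 and 2 counts of CDKN1A. CDKN2D, which encodes p19INK4d, had 398 counts unexposed and 557 with PPMX-T003, and its difference of 0.60 (interval 0.41 to 0.79) was the highest in these families. After the fit on GC content and length it was 0.49, and with the longest transcript 0.45. CDKN1B was lower, at -0.16 (interval -0.26 to -0.06), with -0.16 after either fit. CDKN2C had a difference of 0.11 (interval 0.03 to 0.19), but its interval held 0 after the fit (0.07) and with the longest transcript (0.04).

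In the GADD45 family, GADD45B was the main form, at 128 TPM unexposed and 147 TPM with PPMX-T003, beside 4 and 4 for GADD45A and 2 and 3 for GADD45G. Its counts of 3697 and 4065 gave a difference of 0.25 (interval 0.19 to 0.32), or 0.11 after the fit and 0.13 with the longest transcript. GADD45G had 55 and 58 counts. Of the sestrins, SESN2 had 14 TPM in both libraries, SESN1 7 and 4, and SESN3 0. SESN2 differed by 0.09 (interval -0.04 to 0.22), whereas the interval of SESN1 lay below 0; the difference between them was not tested. RPS27, the close relative of RPS27L, reached 3726 TPM unexposed and 3876 with PPMX-T003. RPS27 differed by 0.11 (interval 0.09 to 0.14) and by 0.06 after the fit, but with the longest transcript the direction turned, to -0.05 (interval -0.07 to -0.02). RPS27A is like them in symbol, but it encodes ubiquitin fused to a different ribosomal protein and is no close relative of RPS27L. It had 1104 and 1098 TPM. By counts it differed by 0.05 (interval 0.03 to 0.08), or 0.07 after the fit. With the longest transcript the value was 0.01 and the interval held 0. The table also lists 20 pseudogenes of RPS27, of which 12 had counts, 404 unexposed and 451 with PPMX-T003 in sum. For the MDM family, MDM2 and MDM4 together gave 44 and 38 TPM.

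**Figure D4:**
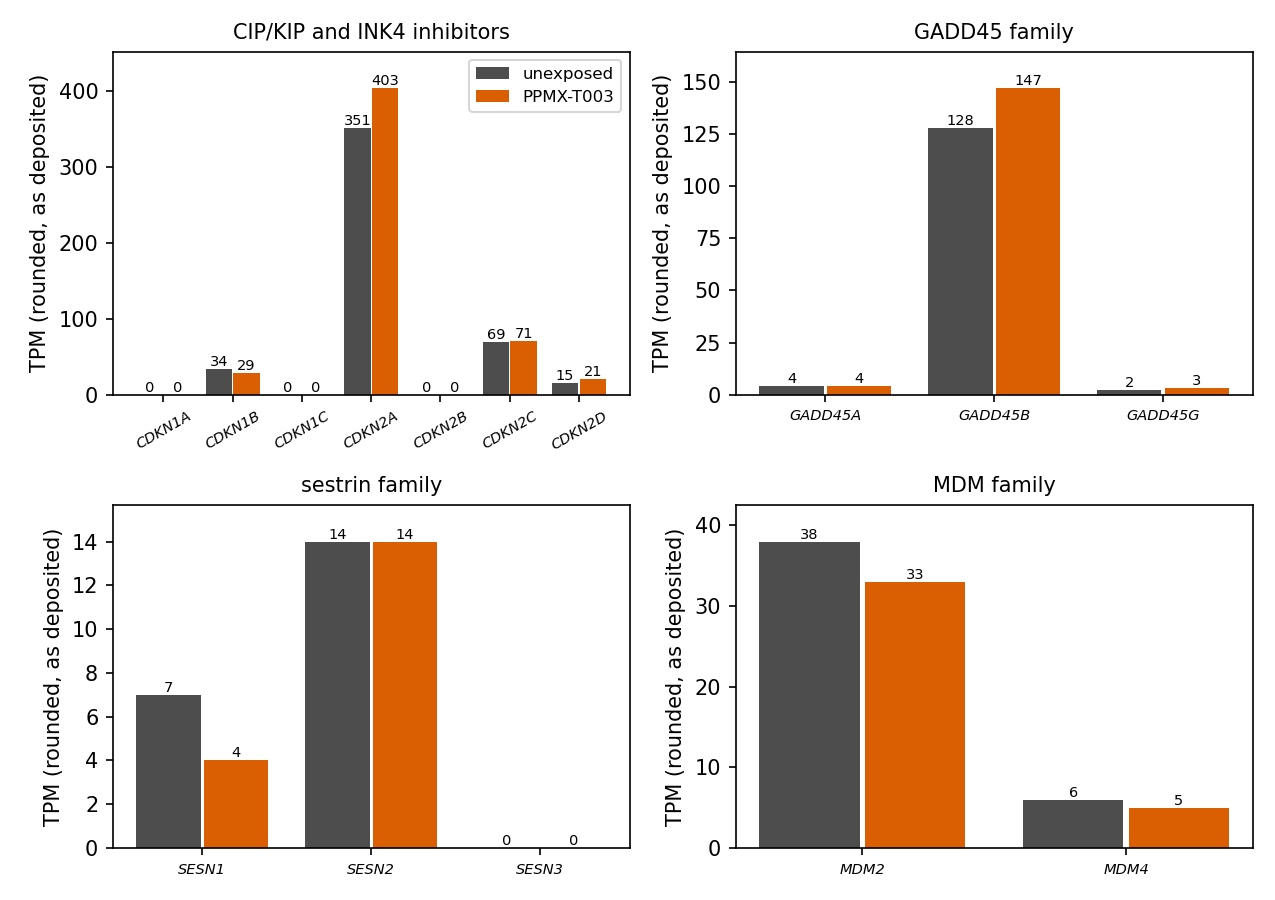
Rounded TPM of each gene of 4 families in the unexposed (grey) and PPMX-T003 (orange) library, with the value above each bar. CDKN2A and GADD45B lead their families, while CDKN1A stands at 0 and GADD45A at 4 TPM in both libraries.

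A wider list held 66 further genes described as direct p53 targets. Of these, 13 were at 0 in both libraries and 50 had at least 20 counts. Among the 50, 24 had a higher and 26 a lower value in the PPMX-T003 library, with a median difference of 0.00 beside 0.00 for all genes tested. The interval lay above 0 for 9 genes (18.0%) and below 0 for 14 (28.0%), beside the 21.8% and 23.9% of all genes tested and the 25.7% and 28.6% of genes with at least 200 counts. After the fit on GC content and length, 12 lay above and 12 below 0, beside 22.9% and 22.5% of the genes fitted. With the longest transcript, 12 lay above and 10 below, beside 21.3% on either side. After either fit the shares of the list were thus near those of all genes. None differed by 2-fold, whereas of all genes tested 1.27% were 2-fold or more higher and 1.38% lower.

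By level per length the list was led by APOBEC3C, a cytidine deaminase that restricts viruses, at 192 TPM unexposed and 195 with PPMX-T003. CYFIP2, a subunit of the actin-regulating WAVE complex, followed at 163 and 159 TPM. PTP4A1, a small tyrosine phosphatase, had 114 and 110 TPM. BAX, which opens the outer mitochondrial membrane in apoptosis, had 110 and 125 TPM. PMAIP1, which encodes the BH3-only protein NOXA, had 95 and 75 TPM. BAX and PMAIP1, both of the apoptosis group, lay on opposite sides of 0.

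The genes that rose most without a fit, by the bound of the interval nearest to 0, were DDB2, BAX and CDIP1. DDB2, which recognises ultraviolet damage for nucleotide excision repair, had 699 and 808 counts (0.33, interval 0.18 to 0.47). BAX went from 2397 to 2630 counts (0.25, interval 0.17 to 0.33). CDIP1, a pro-apoptotic membrane protein, went from 3021 to 3237 (0.22, interval 0.14 to 0.29). After the fit the values were 0.25 for DDB2 and 0.11 each for BAX and CDIP1, and with the longest transcript 0.25, 0.12 and 0.14. The order moved with the fit. HEXIM1, at 0.19 (interval 0.14 to 0.24) without a fit, stood above BAX and CDIP1 in both fits, at 0.24 and 0.21. So did CCDC90B (0.20 and 0.20), RAP2B (0.17 and 0.16), XPC (0.15 and 0.15) and ZNF561 (0.13 and 0.15). Those that fell most without a fit were PMAIP1, TNFRSF10B and CCNG1. PMAIP1 had 4042 and 3080 counts (-0.27, interval -0.34 to -0.21). TNFRSF10B, a death receptor for TRAIL, had 1619 and 1201 counts (-0.31, interval -0.42 to -0.21). CCNG1, which encodes cyclin G1, had 2720 and 2103 counts (-0.25, interval -0.34 to -0.17). After the fit these stood at -0.19, -0.30 and -0.22, and with the longest transcript at -0.22, -0.30 and -0.18.

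Divided by role, the genes are few, and their counts stand beside the same 21.8% above and 23.9% below over all genes tested. The 13 apoptosis genes compared had 1 interval above and 5 below 0, with a median of -0.04, but 3 above and 4 below after the fit and 1 and 4 with the longest transcript. The 6 genes of DNA repair and nucleotide supply had 2 above and 3 below, with a median of -0.15. Of these, DDB2 and XPC, both of nucleotide excision repair, were the higher genes, and POLH, RRM2B and ASCC3 the lower. The role had 2 above and 3 below after the fit, but 2 and 1 with the longest transcript. The intervals of RRM2B (-0.06) and ASCC3 (-0.05) then held 0. The 5 cell cycle genes had 1 above and 1 below, with a median of 0.00. For the 6 genes of metabolism and autophagy the numbers were 1 and 0, with a median of -0.07. After the fit they were 1 and 0, and with the longest transcript 1 and 2. The 20 others had 4 and 5, with a median of 0.01. These became 6 and 4 after the fit and 8 and 2 with the longest transcript. The cell cycle gene above 0 was PLK3, a stress-activated kinase, whose interval held 0 in both fits. The numbers by role thus moved with the fit. GDF15, a secreted stress cytokine, was singled out after its values were seen: its counts of 0 unexposed and 7 in the exposed cells were too few for the comparison.

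**Figure D5:**
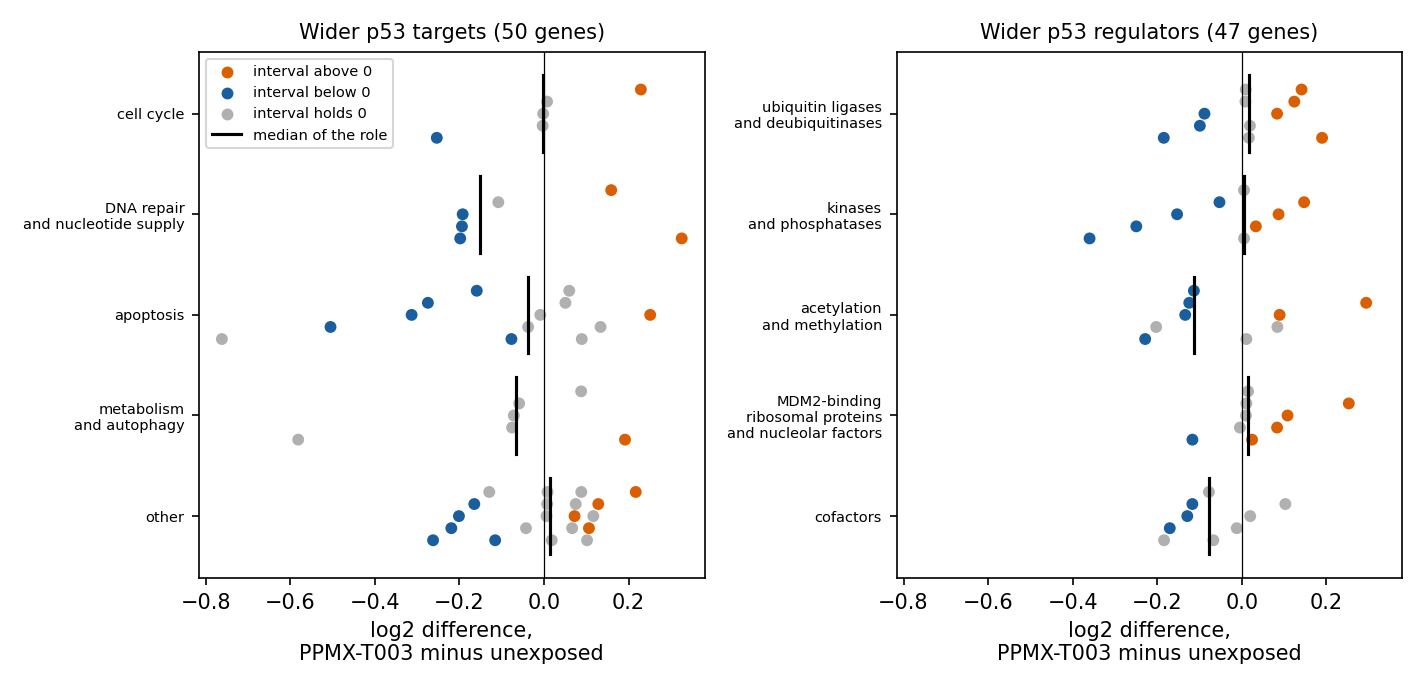
Log2 difference (PPMX-T003 minus unexposed) of 50 wider p53 targets and 47 wider p53 regulators by role; colours show whether the 95% counting interval lies above 0, below 0 or holds 0, and bars give the median of each role. No gene reaches a difference of 2-fold, and both directions occur in most roles.

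A second list held 48 regulators of p53. HIPK2, a kinase that phosphorylates p53, was at 0 in both libraries, and the other 47 were compared. Of these, 26 had a higher and 21 a lower value with PPMX-T003, with a median of 0.01. The interval lay above 0 for 13 (27.7%) and below 0 for 15 (31.9%), and none differed by 2-fold. These genes are mostly abundant, so that the shares of 25.7% and 28.6% among genes with at least 200 counts stand nearest to them. Of the 10419 genes with that many counts, 13 were 2-fold or more higher and 8 lower. After the fit 16 of the 47 regulators lay above and 12 below, beside 22.9% and 22.5% of the genes fitted. With the longest transcript the numbers were 16 and 14, beside 21.3% on either side. After either fit the shares of the list were thus larger than those of the genes fitted on both sides of 0, and the list was not tested.

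The most abundant regulators were nucleolar and ribosomal proteins that can bind MDM2 or p53. NPM1, or nucleophosmin, had 4527 TPM unexposed and 4327 with PPMX-T003. NCL, or nucleolin, had 2207 and 2161 TPM, whereas by counts its difference was 0.02 (interval 0.01 to 0.03). Of the ribosomal proteins, RPL11 had 2021 and 2061 TPM, RPL5 1939 and 1880, and RPS7 1551 and 1508. By counts RPL5 and RPS7 each differed by 0.01, with intervals that held 0. In this group of 9, the interval lay above 0 for 4 genes and below 0 for 1, beside 25.7% and 28.6% of genes with at least 200 counts. The numbers were 5 and 1 after the fit and 3 and 3 with the longest transcript.

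The regulators that rose most without a fit were CDKN2A, KAT5 and TRIM28. CDKN2A, whose product ARF holds MDM2 in check, had 7762 and 8527 counts (0.25, interval 0.21 to 0.30). KAT5, the acetyltransferase TIP60, had 1432 and 1619 counts (0.29, interval 0.19 to 0.40). TRIM28, a corepressor that works with MDM2, had 26503 and 27867 counts (0.19, interval 0.17 to 0.21). After the fit on GC content and length their values were 0.12, 0.20 and 0.08, and with the longest transcript 0.09, 0.20 and 0.08. COP1 and TRIM24, at 0.12 and 0.08 without a fit, stood above CDKN2A and TRIM28 in both fits. They were at 0.21 and 0.20 after the fit, and at 0.13 and 0.21 with the longest transcript. ATR and DTL, at 0.01 and 0.02 without a fit, also stood above CDKN2A and TRIM28 in both fits. Their values were 0.15 and 0.13 after the fit, and 0.15 and 0.10 with the longest transcript.

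ATM, PRKDC and EP300 fell most. ATM, the kinase that answers DNA double-strand breaks, had 5327 and 3826 counts (-0.36, interval -0.42 to -0.30). PRKDC, the catalytic subunit of the DNA-dependent protein kinase, had 55048 and 42689 counts (-0.25, interval -0.27 to -0.23). EP300, an acetyltransferase and coactivator of p53, had 7073 and 5565 counts (-0.23, interval -0.28 to -0.18). After the fit the values were -0.30, -0.15 and -0.28, and with the longest transcript -0.17, -0.11 and -0.16. Among the 9 kinases and phosphatases compared, 3 intervals lay above and 4 below 0. The 9 genes of acetylation and methylation had 2 above and 4 below, the 11 ubiquitin ligases and deubiquitinases 4 and 3, and the 9 cofactors 0 and 3, which are small counts beside shares of 25.7% above and 28.6% below among genes with at least 200 counts. After the fit on GC content and length, kinases and phosphatases had 4 above and 3 below, and acetylation and methylation 2 and 2. Ubiquitin ligases and deubiquitinases had 5 and 3, and cofactors 0 and 3. With the longest transcript in the fit these became 4 above and 3 below for kinases and phosphatases and 1 and 3 for acetylation and methylation. They became 6 and 2 for ubiquitin ligases and deubiquitinases, and 2 and 3 for cofactors.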

How the data were processed

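RNA of NK92 cells was measured in 2 libraries, 1 per condition. The authors trimmed reads with Trimmomatic 0.38, aligned them to hg38 with HISAT2 2.2.0, quantified genes with StringTie 2.1.3b and named edgeR 3.17 for their comparison. The read counts deposited by the authors are of unit other: whole numbers, unscaled, written with commas between groups of digits, which were removed. The TPM deposited by the authors are a score, rounded to whole numbers. The 2 FPKM columns were not used. The table holds 46427 lines and 1 duplicated symbol, which had no counts. Of the marker genes, 1 is not reported here.

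The 9 genes and the wider lists were chosen with earlier results of these data known. Of the wider lists, the 5 genes with the highest TPM and any past 2-fold were named. So were the 3 largest rises and 3 largest falls without a fit, by the interval bound nearest to 0. HEXIM1, CCDC90B, RAP2B, XPC, ZNF561, COP1, TRIM24, ATR and DTL were added for their values after a fit. Of the families, every gene of the CIP/KIP and INK4, GADD45, sestrin, RPS27 and MDM families was named. RPS27A was grouped with RPS27, which it resembles in symbol.

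TMM factors (trims of 30% and 5%), differences, intervals and fits were computed with scipy 1.17.1, numpy 2.4.6 and pandas 2.3.3 under Python 3.11.15, and plots with matplotlib 3.10.9. The code was tested on simulated data. GC content was known for 87.5% of the 13665 genes compared. Alternatives were scaling by median of ratios, by total count and by upper quartile, a prior count of 0.5 or 5, the deposited TPM, removal of the fit, filters of 1 and 200 counts, and thresholds of 1.5-fold and 1.2-fold. Added after seeing the data were a fit on the longest transcript and, for the wider lists, leaving out genes that share exons on the same strand.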

Additional observations from a re-analysis of the deposited data

How the results depend on the processing

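After the fit on GC content and length, 3 genes had an interval below 0 in place of 5, and 1 an interval above 0 in place of 0. With the longest transcript in the fit, a setting chosen after seeing the data, these numbers were 2 and 1, and the median of the 8 genes was -0.038 in place of -0.17. The count past 2-fold was 0 for the pathway genes except with a filter of 1 count, where it was 1. That gene was CDKN1A, at 0 and 2 counts, so its value rests on the prior count and is no measured fold. At 1.2-fold the count was 2 (SESN1 and ZMAT3). Of the wider targets, a filter of 1 count gave 2 higher genes, the TPM 1 lower gene, 1.5-fold 1 lower, and 1.2-fold 1 higher and 5 lower. Of the regulators, 1.2-fold gave 1 higher and 1 lower. No share of all genes past 2-fold is given for the filter of 1 count or for the TPM. Over all genes tested, 12.2% were higher and 12.4% lower at 1.2-fold, and 3.94% and 3.84% at 1.5-fold. These follow from the filter or threshold itself, apart from the fits and the TPM, for which the cause was not tested. In the other 128 comparisons of a summary with an alternative, the count moved by at most 1.5 times or the median by a small amount. Small means no more than the typical distance from the middle of a single-gene counting interval to its bound. Among the 128 are counts past 2-fold that were 0 in both settings. The differences of the 8 pathway genes stayed inside the counting interval of the gene in 58 of 64 comparisons. None of the 5 with an interval off 0 took the opposite sign. Single genes of the wider lists and families were not followed through every setting. Some of these changed sign in a fit, among them RPS27, from 0.11 to -0.05 with the longest transcript. No library could be left out in turn. No paired analysis was possible because there was 1 library per condition. Depth limited GADD45A most among the genes compared, and CDKN1A could not be compared at all.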

Other observations

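Long noncoding RNAs linked to p53 were looked at after their values had been seen, so they are given as values alone. PURPL, a p53-induced RNA, had 63 counts in the unexposed and 25 in the PPMX-T003 library, a difference of -1.16 (interval -1.95 to -0.53) and of -1.10 after either fit. Of all genes with at least 20 counts, 1.38% were 2-fold or more lower. LINC-PINT, another p53-induced RNA, had 246 and 232 counts (0.03, interval -0.23 to 0.30), or 0.07 after the fit and 0.14 with the longest transcript. NEAT1, the scaffold of paraspeckles, had 12048 and 11127 counts (0.00, interval -0.03 to 0.04). Its difference was 0.06 after the fit on GC content and length and 0.19 with the longest transcript. Shifted with either fit, its interval lay above 0. PVT1, which lies beside MYC, had 551 and 495 counts (-0.04, interval -0.22 to 0.14), or -0.09 and -0.10 in these fits. MIR22HG had 0 and 9 counts, and MIR34AHG, PANDAR and DINOL were at 0 in both libraries.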
